A study of Caenorhabditis elegans with 2 samples.

Results

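Among the places where tagged LIN-54 was found in young adult Caenorhabditis elegans were the genes for transfer RNAs. LIN-54 is a DNA-contacting subunit of the DREAM complex, which is known for repressing cell cycle genes. Of the 3449 peaks of the optimal list, called IDR peaks here, 254 (7.36%, Wilson 95% interval 6.54% to 8.28%) had the summit within 200 bp of a nuclear tRNA gene. They were chosen by that distance alone, without regard to their signal, and lay at 282 of the 612 nuclear tRNA genes (46.1%, 42.2% to 50.04%). Wilson intervals here cover counting error over peaks or genes only.

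The animals were of strain OP743, in which the unc-119(tm4063) background carries the integrated fosmid transgene wgIs743, with lin-54::TY1::EGFP::3xFLAG and an unc-119(+) rescue. The labels name no deletion of the endogenous lin-54 gene. Whole worms of pooled sex were collected as young adults at 65 hours after synchronisation by bleaching and L1 starvation, and the tagged protein was precipitated with an anti-GFP antibody. The 2 biological replicates form 1 group, so the values describe how often and where peaks lay, with no test between conditions. All cell types of the worm are pooled, so sites used in a few cells and weaker sites used in many cannot be told apart.

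Transfer RNA genes are transcribed by RNA polymerase III from promoter elements inside the gene, the A box and the B box. TFIIIC binds both boxes and recruits TFIIIB upstream of the start, and termination occurs at a short run of T just after the gene. Many worm tRNA genes exist as identical copies scattered over the chromosomes. This polymerase and its factors differ from those of the protein-coding promoters at which DREAM is usually studied.

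The genes printed here show what carries the main contrasts: identical genes with and without a peak, the strongest tRNA gene peaks on chromosomes V and III, and a gene whose sequence occurs once. Each line gives 40 bases before the gene, the gene and 10 bases after it, 5′ to 3′ on the gene's own strand, from the WBcel235 (ce11) reference of RefSeq. Capitals mark the 9 letters that match the B box in its loose form, GNTCNANNC. The gene itself starts at base 41 of each line. In order, the lines cover chrIV:16400856-16400977 (+), chrX:14135005-14135126 (+), chrX:16209759-16209892 (-), chrX:16209218-16209351 (-), chrV:15465046-15465168 (+), chrIII:11066838-11066959 (-) and chrX:13665515-13665683 (+).
Y65A5A.t4, His, IDR peak: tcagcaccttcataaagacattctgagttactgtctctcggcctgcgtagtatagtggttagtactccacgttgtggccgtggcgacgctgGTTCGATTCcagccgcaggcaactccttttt
F28H6.t2, His, no region: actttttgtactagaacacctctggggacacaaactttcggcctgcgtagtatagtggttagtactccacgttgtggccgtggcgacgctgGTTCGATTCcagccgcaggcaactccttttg
R11.t1, Tyr, IDR peak: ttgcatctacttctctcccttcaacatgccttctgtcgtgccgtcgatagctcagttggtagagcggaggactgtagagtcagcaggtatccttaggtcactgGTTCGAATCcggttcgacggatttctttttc
R11.t2, Tyr, no IDR peak: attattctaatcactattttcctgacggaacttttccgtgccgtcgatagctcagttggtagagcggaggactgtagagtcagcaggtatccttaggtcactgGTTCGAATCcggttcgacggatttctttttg
T23F1.t1, Lys, strongest peak: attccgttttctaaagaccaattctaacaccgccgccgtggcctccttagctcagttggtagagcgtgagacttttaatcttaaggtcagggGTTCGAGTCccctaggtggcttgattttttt
W09D6.t2, Pro, IDR peak: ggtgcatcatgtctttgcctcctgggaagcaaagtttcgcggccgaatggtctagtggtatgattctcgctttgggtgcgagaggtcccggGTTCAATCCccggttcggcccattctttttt
C04A11.t1, Leu, IDR peak, 1 gene of this sequence: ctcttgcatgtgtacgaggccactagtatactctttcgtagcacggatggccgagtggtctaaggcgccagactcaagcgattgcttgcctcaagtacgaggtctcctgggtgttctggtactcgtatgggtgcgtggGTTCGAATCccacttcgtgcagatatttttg
The genes of the His pair are identical, as are those of the Tyr pair. The 40 bases before the genes matched at 17 positions in the His pair and at 15 in the Tyr pair.

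tRNA genes carried LIN-54 more often than other kinds of gene. Of the other nuclear genes, 6.96% (3222 of 46278) had an IDR summit within 200 bp of the gene. The shares were 28.0% of 346 snoRNA genes and 28.7% of 129 snRNA genes, 4.60% of 261 miRNA genes and 12.2% of 19973 protein-coding genes. A longer gene has more room for a summit, so the 5′ ends alone were also counted: 45.3% of tRNA genes (41.4% to 49.2%) and 6.20% of protein-coding genes (5.87% to 6.54%) had a summit within 200 bp of the 5′ end. The 22 mitochondrial tRNA genes had none, and no region of the 4 lists lay on mitochondrial DNA.

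Below the IDR list further regions lay at tRNA genes. The relaxed lists hold peaks and background as input for IDR, per the labels, so a relaxed region alone may be background. The relaxed list of the pooled replicates placed a region at 394 of the 612 tRNA genes, of which 112 had no IDR peak and 218 genes had no region at all. The IDR list held 11.5% of all 30000 pooled regions, background included, and 254 of the 375 at tRNA genes (67.7%, 62.8% to 72.3%). In protein-coding promoter windows, 2859 genes had an IDR summit and 7591 had a pooled region. The 112 genes with a relaxed region alone had a median pooled signal of 64.2 and a median rank of 6204, and 65 of them lay within the first 6898 ranks. Signal is the peak caller's own value, of unstated formula, and ranks regions within a list.

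The tRNA gene peaks were of middling strength and kept to a narrow range. Their pooled signal had a median of 165, with quartiles at 126 and 208 and extremes of 98.2 and 413. The other 3195 IDR peaks had a median of 178, with quartiles at 123 and 308 and a maximum of 7882. None of the tRNA gene peaks stood among the first 500 ranks, which held 15.6% of the other IDR peaks, and 29 (11.4%) stood among the first 1000, against 30.4% of the others. Of the other peaks, 522 were stronger than the strongest tRNA gene peak. Among peaks outside protein-coding promoter windows (1000 bp upstream to 300 bp downstream of a transcript start) the order of the medians turned, with 161 at 188 tRNA gene peaks and 148 at 980 other peaks.

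**Figure D1:**
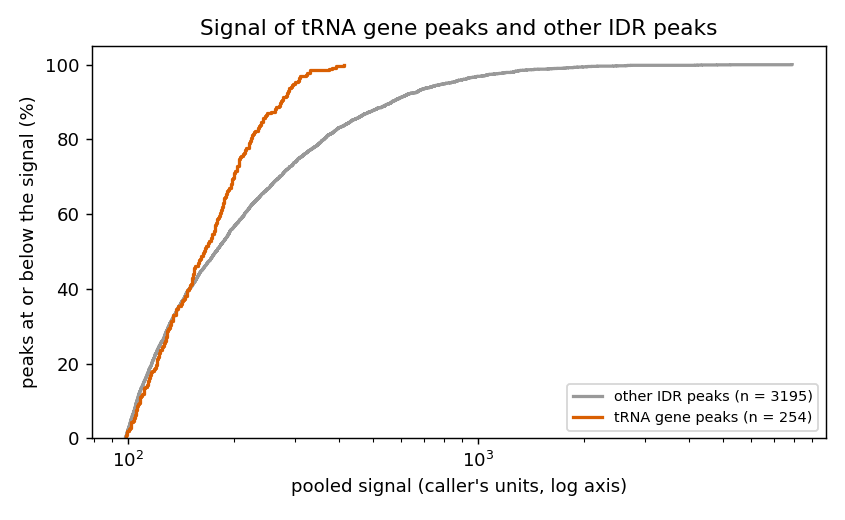
Share of peaks (%) at or below each pooled signal (log axis, caller's units) for the 254 tRNA gene peaks and the 3195 other IDR peaks. Both curves start near 98.2, and the tRNA gene curve reaches its end at 413 while the other runs on to 7882.

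The strongest of them lay at T23F1.t1, a Lys-TTT gene on chromosome V (15465086 to 15465158), with a pooled signal of 413 and rank 523. It had a signal of 185 in replicate 1 and 242 in replicate 2. Its summit fell 33 bp beyond the 3′ end of the gene, in a promoter window, and a second tRNA gene lay within 200 bp. M02F4.t1, a Gly-TCC gene on X (3036164 to 3036235), followed with 391 in the pooled list, 191 in replicate 1 and 195 in replicate 2. W09D6.t2, a Pro-TGG gene on III (11066848 to 11066919), lay inside rsa-2 on the other strand, with 383 in the pooled list, 216 in replicate 1 and 169 in replicate 2. A second tRNA gene also lay within 200 bp of the summits at M02F4.t1 and W09D6.t2, as it did at 30 of all 254 tRNA gene peaks. By their nearest genes these leading peaks belonged to 3 isotypes on 3 chromosomes. Their order differed between the replicates.

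The next 7 by pooled signal spanned 308 to 375. T22A3.t1 (Gly-GCC, inside set-18) had 375 in the pooled list, 149.8 in replicate 1 and 211 in replicate 2. F15G9.t1 (Ala-TGC, inside him-4) had 330 in the pooled list, 166 in replicate 1 and 159 in replicate 2. Its summit too had a second tRNA gene within 200 bp. T02G6.t1 (Ser-CGA, inside vab-10) also had 330 in the pooled list, with 186 in replicate 1 and 135 in replicate 2. These 3 genes share the strand of their host, so the tRNA and the host gene are read in the same direction.

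T21B4.t1 (Ile-AAT, inside col-85) had 325 in the pooled list, with 137 in replicate 1 and 186 in replicate 2. Y82E9BR.t1 (Gly-TCC, inside lelo-2) had 323 in the pooled list, with 161 in replicate 1 and 167 in replicate 2. Both lay on the strand opposite to the host. R11.t1 (Tyr-GTA, X) had 309 in the pooled list, with 158 in replicate 1 and 154 in replicate 2. C04A11.t1 (Leu-CAA, X), with 2 exons and a sequence found in no other tRNA gene, had 308 in the pooled list, with 165 in replicate 1 and 151 in replicate 2. Of these 10 leading peaks, 9 lay outside promoter windows, beside 188 of all 254 tRNA gene peaks. Of their nearest genes, 9 belonged to sequences with 3 or more copies. Among all 282 genes with a peak, only 42 had a sequence of their own and 11 a sequence of 2 copies.

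For the remaining isotypes the strongest peak was weaker. T03E6.t1 (Gln-CTG) ranked 812, W09G10.t3 (Thr-AGT) 866, F22G12.t1 (Val-AAC) 902, Y65A5A.t4 (His-GTG) 983 and Y54G2A.t3 (Asp-GTC) 996. Y22D7AL.t4 (Glu-CTC) ranked 1023, F47G6.t1 (Arg-TCT) 1065, Y39B6A.t9 (Phe-GAA) 1137, C37A2.t1 (Cys-GCA) 1176 and B0523.t1 (Trp-CCA) 1189. C02F12.t1 (Met-CAT) ranked 1352 and ZK507.t1 (Asn-GTT) 1607. The Cys gene lies within cye-1, which encodes cyclin E, and its peak was outside promoter windows, with 113 in replicate 1 and 119 in replicate 2. K11H12.t1, the gene for the tRNA of selenocysteine, ranked 1404, with 112 in replicate 1 and 99.7 in replicate 2. Every one of the 20 standard isotypes and selenocysteine thus had at least 1 peak.

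Summits clustered at the 5′ end of the tRNA gene. The median summit lay 10.5 bp downstream of the first base of the gene, with quartiles at -12 and 43 bp (negative is upstream). The median gene was 72 bp long. Inside the gene lay 136 summits (53.5%), upstream 88 (34.6%) and downstream 30 (11.8%), and 198 (78.0%) were within 50 bp of the first base. The fullest 25 bp interval was 0 to 24 bp, with 71 peaks, followed by -25 to -1 bp with 57. The median was 10 bp in replicate 1 and 12 bp in replicate 2, so both replicates placed the summits at the start of the gene. The summits of the replicates lay a median of 23 bp apart at tRNA gene peaks and 18 bp apart at other IDR peaks. These gaps give the resolution of a single summit position, not of a median.

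**Figure D2:**
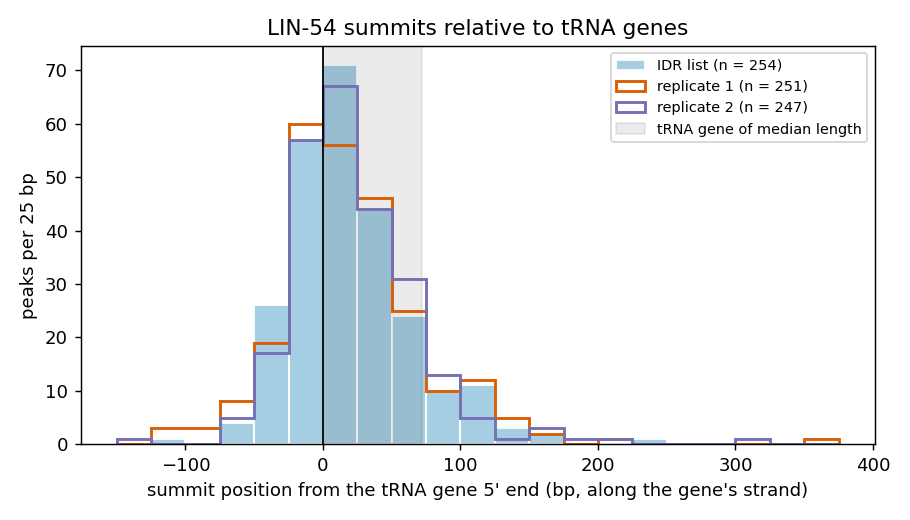
Number of peaks per 25 bp by the position of the summit from the 5′ end of the nearest tRNA gene (bp, along the gene's strand) in the IDR list (filled, n = 254), replicate 1 (n = 251) and replicate 2 (n = 247). All 3 distributions are highest between -25 and 49 bp, with medians of 10.5, 10 and 12 bp, and the shaded span marks a gene of the median length, 72 bp.

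Most summits lay upstream of the B box, the one element of the internal promoter that was searched. How reads inside repeated genes were placed is not stated, and its part in these positions was not tested. The strict B box GTTCGANNC was searched in the nearest genes on their own strand and was found in those of 185 peaks, with its centre at a median of 56 bp from the gene start. In 156 of the 185 (84.3%) the summit was upstream of that centre, by a median of 50 bp over all 185, and in 33 (17.8%) it lay within 20 bp of it. Signal did not separate the positions, with medians of 165 upstream, 166 inside and 166 downstream. The median was 22 bp for the 66 peaks in promoter windows and 9 bp for the 188 outside. It was 12.5 and 10 bp in replicate 1 and 19 and 11 bp in replicate 2. The 23 bp between the summits of the replicates is a spread at single peaks, and this difference of medians was not tested.

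The limit of 200 bp was seldom reached. Within 50 bp of the gene lay 244 of the 254 summits (96.1%), and 252 within 100 bp. The last inside the limit was at F49C5.t2 (Ala-AGC, II), 157 bp away, with a signal of 99.1 in the pooled list, 54.4 in replicate 1 and 40.8 in replicate 2. R04A9.t1 (Gln-TTG, X) was next at 101 bp. The first outside was 215 bp from Y38E10A.t1, with 499.8 in the pooled list (rank 393), 255 in replicate 1 and 275 in replicate 2. Peaks 285 bp from C18A11.t2 (464, rank 438) and 390 bp from ZK970.t1 followed. The former shares its region with a tRNA gene peak whose summit lay 86 bp from C18A11.t2. With a limit of 500 bp, tRNA gene peaks would thus stand among the first 500 ranks and above 413. A single tRNA gene lay within 200 bp of 224 summits, and 2 genes within that distance of 30.

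The replicates held nearly all of the tRNA gene peaks. A region overlapping by at least 50% of the shorter one was present in the relaxed list of replicate 1 for 251 of 254, of replicate 2 for 247, and of both for 244 (96.1%, 92.9% to 97.8%), against 98.7% of other IDR peaks. Among the strongest 3449 regions of each replicate, 189 were present in both (74.4%), 60 in 1 and 5 in neither. For the other IDR peaks the share in both was 74.6%. Since the IDR list was made from these same replicates, the presence of its peaks in both is not independent evidence.

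The signal was of the same size in both replicates. The median was 80.3 in replicate 1 and 82.8 in replicate 2 at tRNA gene peaks, and 89.8 and 91.8 at other IDR peaks. The replicates' values differed by less than 2-fold at 236 of 244 tRNA gene peaks (96.7%) and at 95.4% of the others. Across peaks, which are not independent, Spearman's rho was 0.688 (n = 244) at tRNA genes and 0.813 (n = 3152) elsewhere, over a much wider range of signal elsewhere. At 3 tRNA gene peaks a replicate region was shared with a neighbouring IDR peak, so its value belongs to both.

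**Figure D3:**
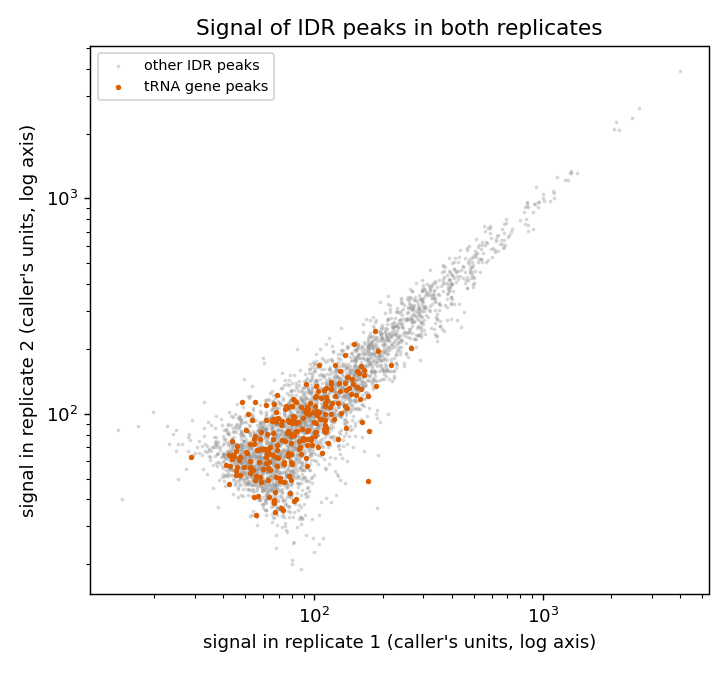
Signal in replicate 1 (x) and replicate 2 (y), both log axes in the caller's units, of the IDR peaks present in both lists: 244 tRNA gene peaks and 3152 other IDR peaks, 1 point each. The tRNA gene peaks occupy the lower part of the cloud, with medians of 80.3 and 82.8, and leave the strong end to other peaks.

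Some peaks differed in rank between the replicates or had a matched region in only 1 of their relaxed lists. The largest rank differences toward replicate 2 were at H08J11.t1 (Gln-CTG, X), with 28.9 in replicate 1 and 62.8 in replicate 2, at F49C5.t4 (Lys-TTT, II), with 48.5 and 114, and at R11B5.t3 (Ile-AAT, X), with 43.6 and 74.5. Toward replicate 1 they were at Y49E10.t1 (Gln-TTG, III), with 71.9 and 36.5, at C12C8.t2 (Gly-TCC, I), with 67.7 and 35.1, and at F18G5.t1 (Ala-AGC, X), with 73.4 and 35.7. C02D4.t1 (Ile-AAT), F14B4.t1 (Arg-TCG) and F27E11.t1 (Met-CAT) had no region in replicate 1, with 99.1, 115 and 42.2 in replicate 2. A further 7 peaks had none in replicate 2, with 39.2 to 131 in replicate 1.

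Shares differed between isotypes, with wide intervals. Thr genes had a peak most often (22 of 34, 64.7%, 47.9% to 78.5%), followed by Asp (17 of 27, 63.0%), Glu (23 of 41, 56.1%) and Gly (29 of 55, 52.7%). At the low end stood Asn (5 of 20, 25%, 11.2% to 46.9%), Trp (3 of 12, 25%), Tyr (5 of 19, 26.3%), His (6 of 20, 30%) and Ser (14 of 39, 35.9%). The other 11 isotypes lay between 38.5% and 50%, close enough for neighbours in the order not to be separated by their intervals. The strongest regions of each replicate gave 61.8% and 64.7% for Thr, but 25% in replicate 1 and 50% in replicate 2 for Asn, so the place of Asn at the end of the order rested on replicate 1.

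**Figure D4:**
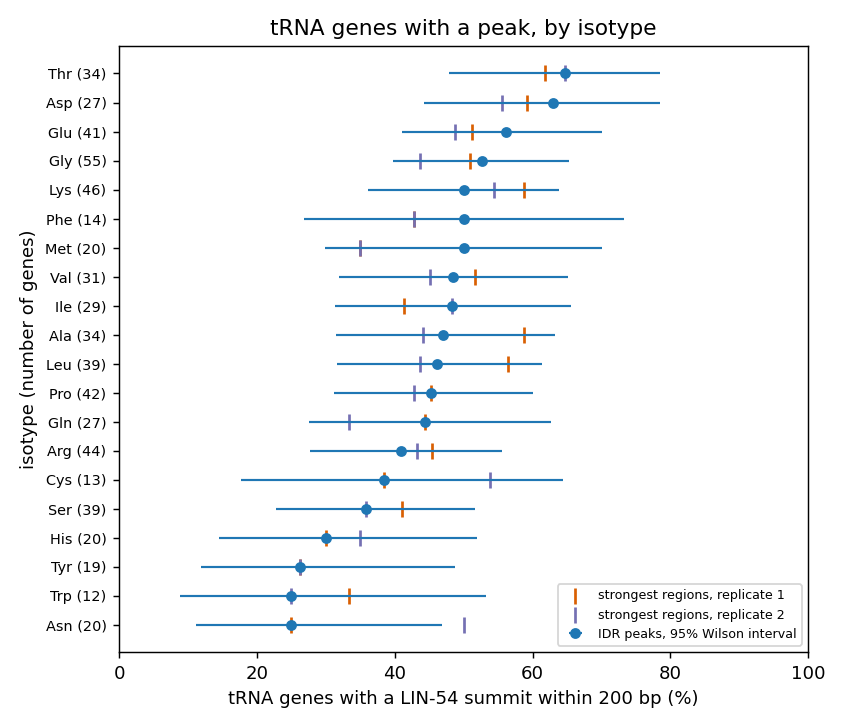
Share of tRNA genes (%) with a LIN-54 summit within 200 bp for the 20 standard isotypes, with the number of genes in parentheses. Dots are IDR peaks with 95% Wilson intervals, and ticks are the strongest regions of replicate 1 and replicate 2; Thr stands highest at 64.7% and Asn and Trp lowest at 25%, with overlapping intervals for most neighbours.

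Within an isotype the shares of the anticodons lay apart in some cases and close together in others, beside 46.1% of all tRNA genes. Glu-TTC genes had a peak in 12 of 17 cases (70.6%) and Glu-CTC genes in 11 of 24 (45.8%). Ser-CGA had 4 of 6 and Ser-AGA 4 of 15, and Ile-AAT had 12 of 21 and Ile-TAT 2 of 7. Closer together were Ala-AGC with 11 of 22 and Ala-CGC with 2 of 4, and Gln-TTG with 9 of 19 and Gln-CTG with 3 of 7. All of these intervals overlap. An anticodon could be read from the stem and loop in 584 genes. Of the 17 others outside Met and selenocysteine, including 5 of undetermined isotype, none had a peak, with an upper bound of 18.4%. The 10 genes without a loose B box all had a sequence of their own, and 1 had a peak (10%, 1.79% to 40.4%). Among genes with a sequence of their own and a loose B box, 41 of 133 had one (30.8%, 23.6% to 39.1%), an overlapping interval.

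The X chromosome carries a large share of the tRNA genes, and there LIN-54 was found at fewer of them. Of the 276 on X, 98 had a peak (35.5%, 30.1% to 41.3%), and of the 336 on autosomes 184 (54.8%, 49.4% to 60.0%). The autosomes ranged from 42.3% (V, 33 of 78) to 68.75% (III, 44 of 64). With the strongest regions of a single replicate the shares were 39.5% on X and 53.6% on autosomes in replicate 1, and 33.3% and 53.6% in replicate 2, so the order held in each. The gap was wider among grouped genes, those less than 1000 bp from another tRNA gene. Among lone genes 39.7% on X (32.0% to 48.0%) and 50.2% on autosomes (43.9% to 56.6%) had a peak, X minus autosomes being -10.5 percentage points against -19.3 over all genes, and in the strongest regions of replicate 1 it was 47.5% and 49.8%. Relaxed regions lay at 54.7% of X genes and 72.3% of autosomal genes. The median share of 30-base words around the gene that occur once in the genome was 68.6% on X and 68.3% on autosomes.

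At the same time tRNA gene peaks made up a large part of LIN-54 binding on X. X held 255 IDR peaks, of which 86 (33.7%, 28.2% to 39.7%) were tRNA gene peaks. On the autosomes 168 of 3194 were (5.26%, 4.54% to 6.09%), between 4.63% on II and 5.88% on IV. Median signals were 156 for tRNA gene peaks on X and 173 on autosomes, and for other IDR peaks 145 and 181.

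Identical genes allow the same contrast with the gene's letters held fixed. The 612 genes had 200 distinct sequences, and 43 sequences had copies on both X and autosomes. Of their autosomal copies 140 of 223 (62.8%) had a peak, and of their X copies 75 of 185 (40.5%). The autosomal share was the higher in 28 of the 43 sequences and the X share in 9. For Lys-CTT, 12 of 15 autosomal copies and 4 of 10 X copies had a peak, and for Thr-AGT 7 of 8 and 2 of 7. Lys-TTT went the other way, with 3 of 9 on autosomes and 3 of 5 on X, as did the Ala-TGC sequence of F15G9.t1, with 0 of 5 and 3 of 3.

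**Figure D5:**
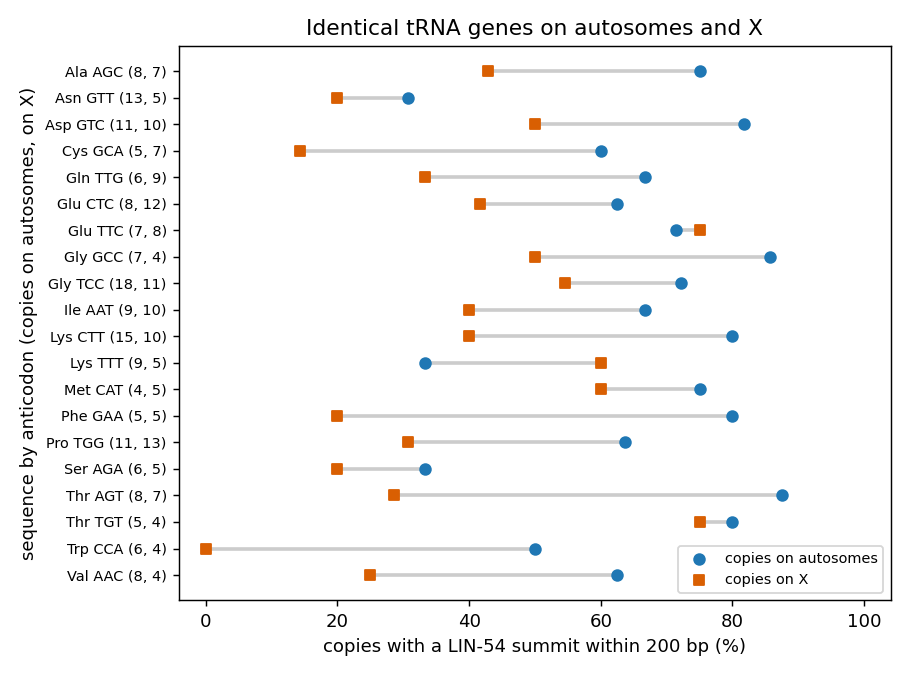
Share of identical copies (%) with a LIN-54 summit within 200 bp on autosomes (circles) and on X (squares), for the 20 sequences with at least 4 copies on each; parentheses give the numbers of copies. The autosomal share was the higher in 18 of the 20, the exceptions being the Lys-TTT and Glu-TTC sequences.

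Most shared sequences held copies with and without a peak, beside a peak at 240 of all 469 genes of shared sequence (51.2%). With such a share, a sequence of many copies is likely to be mixed. Of the 57 shared sequences, 46 had copies with and without a peak (441 genes), 4 had a peak at every copy and 7 at none. The largest, a Gly-TCC sequence of 29 genes, had a peak at 19. The Lys-CTT sequence had 16 of 25, Pro-TGG 11 of 24, Asp-GTC 14 of 21 and Glu-CTC 10 of 20. A Glu-TTC sequence reached 11 of 15 and an Asn-GTT sequence 5 of 18. Since a short read inside identical copies can come from any of them, which copy was bound rests on reads that reach the flanks.

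Genes of shared sequence had a peak more often than genes with a sequence of their own. The shares were 240 of 469 (51.2%, 46.7% to 55.7%) and 42 of 143 (29.4%, 22.5% to 37.3%), and 60 of 99 (60.6%) for sequences with over 20 copies. The direction held on X (39.7% and 19.3%) and on autosomes (61.2% and 36.0%). By the share of unique words around the gene, 250 of 474 genes between 50% and 75% had a peak (52.7%), 28 of 88 between 75% and 100% (31.8%), 2 of the 17 with every word unique (11.8%) and 2 of the 33 at or below 50% (6.06%). How reads from repeated sequence were assigned is not stated in the labels, and its part in these shares was not tested.

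Shares at neighbouring tRNA genes went opposite ways on X and on autosomes. A group was taken as tRNA genes less than 1000 bp apart, which gave 100 groups with 236 genes and left 376 genes alone. Over the genome, 46.3% of lone genes and 45.8% of grouped genes had a peak. On autosomes the shares were 50.2% of lone genes and 65.3% of the 101 grouped genes, and on X 39.7% of 141 lone genes and 31.1% of 135 grouped genes. With the strongest regions of replicate 1 these were 49.8% and 62.4% on autosomes and 47.5% and 31.1% on X, and with those of replicate 2 they were 49.8% and 62.4%, and 41.8% and 24.4%. The even total thus joined opposite differences, whose own difference was not tested. A summit within 200 bp of 2 genes counts for both of them.

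The 2 largest groups, both on X, had peaks at 2 of their 12 genes (16.7%, 4.70% to 44.8%). That interval covers the 31.1% of all grouped genes on X. The 6 His genes of F28H6, identical and spread over 14135045 to 14137010, had no region in the pooled list. Around them the share of unique words was 60.5% at F28H6.t2, printed above, and 0% at F28H6.t3 and F28H6.t4. The identical Y65A5A.t4, with 64.5% unique words, had signals of 271 in the pooled list, 138 in replicate 1 and 129 in replicate 2. Across the 11 copies of this His gene all 3 autosomal copies and 1 of 8 on X had a peak. The 5 Arg and Cys genes of K01A12 also had no region, with 65.7% to 78.5% unique words, beside a median of 68.6% at genes with a peak.

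Other groups were mixed or full. The 6 genes of F22F1.t2 to F22F1.t7 (Ser, Asp, Met and Ile) had peaks at F22F1.t5 (103) and F22F1.t7 (120). The 5 Gln genes of H08J11, inside ajm-1, had peaks at 4, served by 2 regions with signals of 102 and 163. On IV all 4 genes of Y65A5A (Ala, Ala, Val and His) had a peak, with 134, 191, 109.6 and 271. Of the 4 identical Tyr genes of R11, only R11.t1 had an IDR peak (309), while the relaxed regions at the other 3 had signals of 49.7 to 65.1, and unique words were 59.9% at R11.t1 and 54.7% at R11.t2. The 4 identical Val genes of T01B4 had 1 peak (T01B4.t1, 123), with relaxed regions of 28.1 to 87.8 at the others.

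Intervals overlapped between tRNA genes inside and outside other genes. A peak lay at 67 of 123 genes inside another gene on the opposite strand (54.5%, 45.7% to 63.0%), 74 of 166 inside on the same strand (44.6%, 37.2% to 52.2%) and 140 of 319 between genes (43.9%, 38.5% to 49.4%). On X the opposite-strand share was 51.1% of 45, against 29.4% of 51 on the same strand and 33.3% of 180 between genes. Genes in a protein-coding promoter window had a peak in 74 of 147 cases (50.3%) and others in 208 of 465 (44.7%). Of the tRNA gene peaks themselves 66 of 254 (interval 21.0% to 31.7%) lay in such a window, against 69.3% of other IDR peaks.

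Letters of the sites bound by DREAM subunits were less frequent at tRNA gene peaks than at other IDR peaks over the whole genome. For CHR the order turned on X, with overlapping intervals. The CHR element, TTCGAA or TTTGAA on either strand, is the site of LIN-54. It lay within 50 bp of the summit in 56 tRNA gene peaks (22.0%, 17.4% to 27.5%) and in 35.5% of other IDR peaks. On autosomes the CHR shares were 20.8% and 36.5%, while on X 21 of 86 tRNA gene peaks (24.4%, 16.6% to 34.5%) and 27 of 169 others (11.2% to 22.2%) had a match. Within 100 bp they were 50% (39.7% to 60.3%) and 34.9% (28.1% to 42.4%) on X, again with overlapping intervals. The E2F site, written TTSSCGC with S for G or C, lay within 50 bp in 16 (6.30%, 3.91% to 9.99%) and 18.4%. Neither was present at 188 tRNA gene peaks (74.0%) and at 56.4% of the others, and on X at 75.6% and 74.0%. Among peaks outside promoter windows the CHR shares were 21.8% and 26.9% within 50 bp, with overlapping intervals, and 46.3% and 46.5% within 100 bp. GC content within 50 bp had a median of 50.5% at tRNA gene peaks and 44.6% at others.

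CHR letters arise within the tRNA gene itself, since a B box GTTCGANNC with A as its next letter reads TTCGAA, as in R11.t1 and C04A11.t1. There the B box lies more than 50 bp from the summit, and neither peak had a CHR match within 50 bp. Of the CHR matches near tRNA gene summits 26 lay inside the gene, 18 of them in the B box, and 39 outside it. Of the genes with CHR letters in the gene 68 of 175 had a peak (38.9%, 31.9% to 46.2%), and of those without 214 of 437 (49.0%, 44.3% to 53.7%), with overlapping intervals. The shares were 44.7% and 58.7% on autosomes and 32.1% and 36.9% on X, where the strongest regions of replicate 1 gave 39.5% for both. By that letter of the B box the shares were 39.4% for A, 49.7% for T, 45.8% for G and 51.9% for C. In a window of 50 bp to each side of base 10 of the gene, CHR was present at 19.1% of tRNA genes with a peak and 25.2% of those without, and E2F at 6.03% and 5.15%. The strict B box lay within 200 bp of 73.2% of tRNA gene summits and 3.51% of other IDR summits, on either strand, a contrast that the choice of peaks near tRNA genes fixes. A match is a stretch of letters and not a measured site.

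Protein-coding genes linked to tRNA synthesis were also looked up, 10 for polymerase III, its factors and its repressor and 3 for tRNA processing or export. An IDR peak lay in the promoter window of 2 of the 10 and 1 of the 3, and of 14.3% of all 19973 protein-coding genes. At mafr-1, the homologue of the polymerase III repressor Maf1, the signal was 907 in the pooled list, 501 in replicate 1 and 406 in replicate 2. It was 182, 67.5 and 109 at tftc-1, a TFIIIC subunit gene, and 155, 72.9 and 78.6 at popl-1, for an RNase P subunit homologue. A further 8 genes, among them brf-1, tbp-1, tftc-3 and the tRNA exporter gene xpo-3, had a relaxed region alone, with pooled signals of 38.0 to 63.7. Any pooled region, IDR peaks included, lay at 11 of the 13 and at 38% of all protein-coding genes (7591). The 8 relaxed regions had pooled ranks of 6292 to 14822, in a list that also holds background. The 13 genes were chosen with earlier results of these data known, and no enrichment was tested. The polymerase subunit genes rpc-1 and rpc-2 had none.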

How the data were processed

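LIN-54 ChIP-seq peaks of 2 biological replicates (1 group) were analysed from 4 deposited lists on build ce11, per the labels. The deposited signal is the caller's value, and the summit offset gives its maximum. The deposited −log10 q values were not used for ranking. Regions were listed with a control file as input to IDR, per the file descriptions; that control is not analysed here. Neither aligner nor caller nor IDR threshold is given in the sources used here. Read depth is unknown. Per-sample columns not used numbered 0.

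Peaks were read 1-based in Python 3.11.15 (numpy 2.4.6, pandas 2.3.3, matplotlib 3.10.9). Genes came from Ensembl release 115, tRNA isotypes from RefSeq by WormBase identifier (612 of 612 matched). Functions were tested on simulated data. No test was run, since there is 1 group. Named genes were the nearest genes of the 10 strongest peaks, the strongest of each isotype, the 3 largest rank differences each way, peaks missing from a replicate, those beside the distance limit, the largest groups and sequences, and the list of polymerase III and tRNA processing genes. Members and lists were chosen with earlier results of these data known. Alternatives were other distances, the strongest peaks, each replicate left out, and subsets of genes.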

Additional observations from a re-analysis of the deposited data

How the results depend on the processing

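Read depth limits these results in an unknown way, and 2 replicates give no test. The count of 254 peaks was 252 and 261 with limits of 100 and 500 bp, 250 by overlap with the gene and 247 to 263 with a replicate left out, but 112 among the strongest 1724 peaks. The share of tRNA genes with a peak (46.1%) was 43.8% and 48.9% with those limits, 43.5% by overlap, 20.8% with the strongest peaks, 29.4% for genes with a sequence of their own and 44.4% to 47.2% with a replicate left out. The ratio of median signals at tRNA gene and other peaks was 0.929. Over the same IDR peaks it was 0.895 to 0.902 with the signals of a single replicate. It was 0.905 for tRNA gene peaks outside promoter windows, but 1.05 for genes with a sequence of their own. With both sets outside promoter windows it was 1.09, an alternative chosen after seeing the data. The median summit position was 9 bp outside promoter windows and 12 bp with 1 tRNA gene within 500 bp. From the matched regions of a single replicate at the same IDR peaks it was 10 to 12 bp. The share of X minus that of autosomes (-19.3 percentage points) was -20.2 to -14.1 with a replicate left out and -10.5 for lone genes. Shared minus 1-gene sequences (21.8 points) gave 18.7 to 20.6 with a replicate left out and 20.3 for genes with a loose B box. Grouped minus lone genes (-0.51 points) gave -6.13 to -4.44 with a replicate left out, -5.16 with neighbours within 500 bp, -8.61 on X and 15.1 on autosomes, where it reversed, so this total is no stable difference; the cause was not tested. The range of shares over isotypes (39.7 points) was 36.8 to 39.7 with a replicate left out. CHR lay at 47.6% within 100 bp and at 20.5% to 22.7% with a replicate left out, E2F at 12.2% within 100 bp and at 6.08% to 7.69%. Splits of the X and neighbour differences, the loose B box subset and the motif shares per replicate were also chosen after seeing the data. No paired analysis was possible because there is 1 group.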
